A study of Homo sapiens with 2 samples.

Results

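The mRNAs described here are those of the nuclear genes that encode the mitochondrial respiratory chain and ATP synthase. They were chosen by name: protein-coding genes whose symbol begins with NDUF, UQCR, COX4I, COX5, COX6, COX7, COX8 or ATP5. The rule found 94 of 20163 nuclear protein-coding genes, of which 38 encode subunits of complex I, 8 complex I assembly factors, 9 complex III, 19 complex IV and 20 ATP synthase. NDUFA4 and NDUFA4L2 were counted with complex IV. Cytosines were kept when they lay on an exon of these genes, on the same strand, with a coverage of at least 10, coverage being the sum of unconverted and converted reads. This left 7978 sites of the 1584002 that MCF10A kept in all, and 6333 of the 1271253 of MDA-MB-468.

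MCF10A is a normal line from the epithelium of the breast, while MDA-MB-468 derives from a breast cancer, and the labels name no treatment or altered gene for either. Each line was profiled by 1 library of RNA BS-Seq, with no replicates. In RNA BS-Seq, RNA selected for poly(A) tails reacts with bisulfite, which took 8 hours at 60 degrees in this study, so that unmodified cytosine is read as thymine while 5-methylcytosine (m5C) is still read as cytosine. The methylation ratio of a site is its unconverted reads over its coverage, and an m5C site is one whose ratio exceeded the average of its library in a one-sided Fisher's exact test with Benjamini-Hochberg adjustment at an FDR of 0.05.

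Electrons from NADH enter the respiratory chain at complex I, pass through complex III to complex IV, where oxygen is reduced, and the proton gradient that builds up drives ATP synthase. Most subunits of these complexes are encoded in the nucleus and imported into mitochondria, while a few core subunits are encoded by mitochondrial DNA. The nuclear-encoded mRNAs are short and abundant in most tissues, and tumor lines are known to differ widely in how much they rely on respiration. Cytosines in stable RNA structure can escape bisulfite, so unconverted reads are not m5C by themselves.

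The deposited tables held 76098976 counts in MCF10A and 90960018 in MDA-MB-468. Over the kept sites the nonconversion rate, against which m5C sites were called, was 1.99% and 1.81%, and the median coverage was 18 in each line. Of 11 genes fixed as mammary epithelial markers, MCF10A had deposited sites on 11 and MDA-MB-468 on 10. Their summed coverage per exonic cytosine was 5814 and 45497 per 1000000000 counts on nuclear exons. The largest parts of the second sum were KRT19 (26071, against 63.8 in the normal line) and KRT7 (10613 against 4607). The sum hides opposite differences. By the same measure the cancer line was lower for KRT5 (201.3 against 387.6), KRT6A (2.54 against 102.9) and KRT14 (0 against 6.62). It was higher for each of the remaining markers. The epithelial marker EPCAM had 1 deposited site in MCF10A and KRT14, a basal keratin, had none in MDA-MB-468. Of 7 markers of blood, stroma, liver and endothelium, 6 had no deposited site in either line and COL1A1 had 49 in MCF10A and 568 in MDA-MB-468, a summed level of 2.47 and 67.8. Their part in the results was not tested. The intervals given are 95% Wilson intervals that cover counting error only, since reads carry no molecular identifiers and 1 read can cover several cytosines. A p-value between the lines therefore compares these 2 libraries, not the conditions, and in bulk RNA a lower coverage from fewer cells cannot be told apart from less RNA per cell.

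The sequences that carry the results are the windows around the 10 cytosines that were m5C sites in both lines. They are on GRCh37, written 5′ to 3′ on the RNA strand as DNA letters, and the capitals mark the cytosines called in both libraries.
NDUFB7 exon 2, chr19:14677637-14677665, minus strand: cggctgctcaagtgCaagcgtgacagctt
NDUFB7 exon 3, chr19:14676961-14676989, minus strand: aaaggccagggaccCggggaagtggaccc
NDUFAF8 exon 2, chr17:79213395-79213423, plus strand: gcctccacggCCCCgggCggCCgcctgag
ATP5MG exon 3, chr11:118279778-118279806, plus strand: ataggcaagcggggCatcattggctatga
Each NDUFB7 window and the ATP5MG window held 1 called cytosine among its kept cytosines, 8 in each of the NDUFB7 windows and 3 in the ATP5MG window. The NDUFAF8 window held 7 called cytosines of 14, packed within 12 nt.

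In MCF10A 100 of the 7978 sites were m5C sites, 1.25% (1.03% to 1.52%), against 0.96% of all kept sites of the line and 0.847% of nuclear mRNA sites. In MDA-MB-468 35 of the 6333 sites were, 0.553% (0.398% to 0.768%), against 0.84% and 0.73%. The share thus stood above that of all mRNA in the first library and below it in the second. The MCF10A sites lay on 24 of the 83 genes with a kept site, 28.9%, where 21.1% of all protein-coding genes with a kept site had an m5C site. In MDA-MB-468 they lay on 9 of 76 genes, 11.8%, against 16.9% of all such genes. NDUFC2 and its readthrough gene NDUFC2-KCTD14, which joins it to a neighboring gene, share 1 of these sites. Coverage at the kept sites had a median of 35 (MCF10A) and 31 (MDA-MB-468), where all mRNA had 18 in both.

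ATP5MG, COX7C, NDUFAF8, NDUFB7 and NDUFS6 carried an m5C site in each line, and 28 genes carried one in either. The same overlap of genes over all protein-coding genes was not computed. Of the 100 MCF10A sites, 69 were kept in MDA-MB-468 and 10 of them were called there. Of the 35 MDA-MB-468 sites, 27 were kept in MCF10A and the same 10 were called. These were 14.5% and 37.04% of the sites that could be compared, whereas over all nuclear kept sites 48.2% of 8347 and 63.0% of 6385 such sites were called in the other line, a difference that was not tested. The 10 lay on ATP5MG, NDUFAF8 and NDUFB7, as in the windows printed above, and the sites of COX7C and NDUFS6 fell on different cytosines in the 2 lines.

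**Figure D1:**
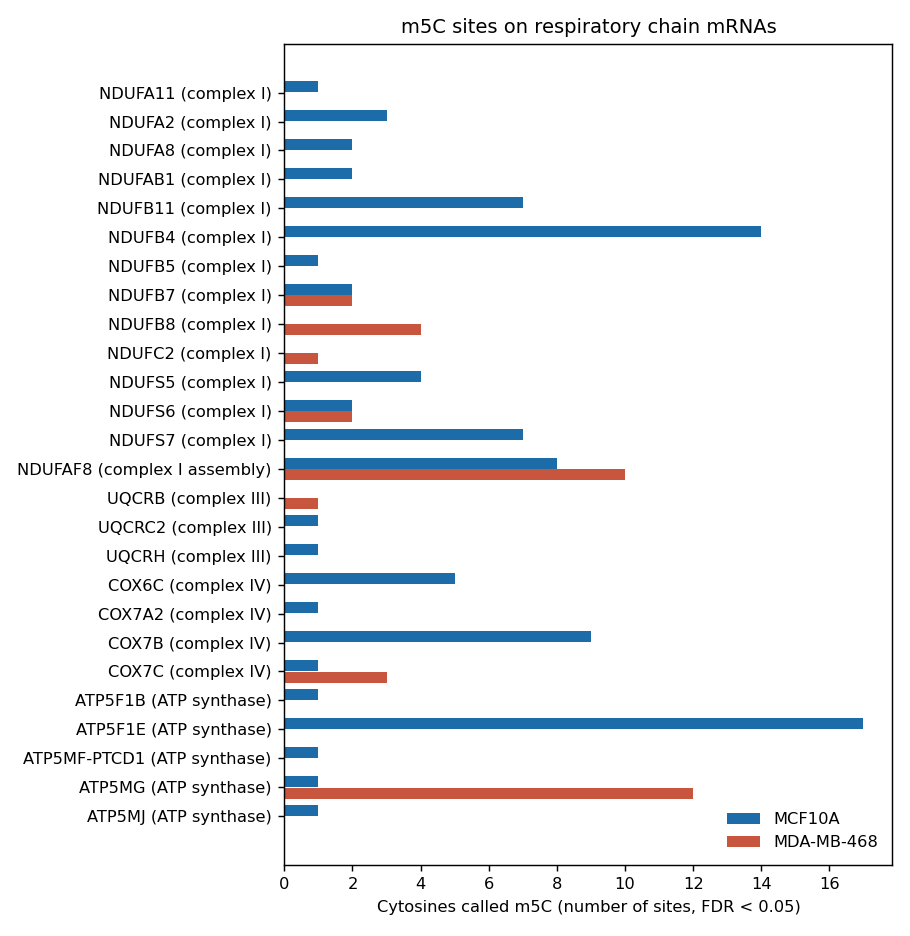
Number of cytosines called m5C on the genes with at least 1 that are reported here, by complex (horizontal axis, number of sites), in MCF10A (blue) and MDA-MB-468 (red), 1 library each. ATP5F1E with 17 sites led in MCF10A and ATP5MG with 12 in MDA-MB-468, and each of these genes had 0 or 1 in the other line.

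NDUFB7 encodes an accessory subunit of complex I on the side of the intermembrane space. At position 14677651, in exon 2 of 3 and 206 nt downstream of the A of the start codon, 31 of 97 reads were unconverted in MCF10A, 32.0% (23.5% to 41.8%). At the same cytosine 154 of 242 were unconverted in MDA-MB-468, 63.6% (57.4% to 69.4%), so the ratio in the cancer line was higher and the intervals did not overlap. The cytosine is the third base of its codon and was not paired in the predicted structure, but its pairing probability was 0.633, and leaving out sites with a probability over 0.5 removed it.

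The difference was 31.7 percentage points (20.1 to 41.9), with an odds ratio of 3.73 (2.20 to 6.37) by a two-sided Fisher's exact test (exact p = 1.53e-07, adjusted p = 0.000306 over 812729 sites kept in both lines). It was the single one of 5865 tested respiratory chain sites to be higher in MDA-MB-468, where 0.0202% of all sites were, and 0 were lower, where 0.0691% of all sites were. At an unadjusted p under 0.05, 43 of the 5865 sites were higher and 51 lower, 1.60% in all, against 3248 higher and 6036 lower of all 812729 sites, 1.14%. Among the 9 other kept cytosines within 15 nt, 2 of 846 MCF10A counts were unconverted, 0.236%, as were 12 of 1956 counts of MDA-MB-468, 0.613%. The pooled neighbors were therefore below the nonconversion rate of their library, and the highest single neighbor stood at 1.61% and 1.84%.

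The other NDUFB7 site, at position 14676975 in exon 3 and also the third base of its codon, had 6 of 50 unconverted reads in MCF10A, 12% (5.62% to 23.8%), and 62 of 271 in MDA-MB-468, 22.9% (18.3% to 28.2%). The ratio was again higher in MDA-MB-468, but the intervals overlapped and the difference of 10.9 points (-1.79 to 19.2) did not pass (Fisher's exact p = 0.0922, adjusted p = 1). Its 9 neighbors within 15 nt pooled to 3.42% and 2.35%, and the highest single neighbor stood at 11.1% and 4.66%. In MCF10A the site thus stood little above that neighbor, and its call was near the threshold (one-sided Fisher's exact test, adjusted p = 0.0493). NDUFB7 was also among the genes whose coverage differed most between the libraries, as given below, so both of its sites were measured with more reads in MDA-MB-468.

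**Figure D2:**
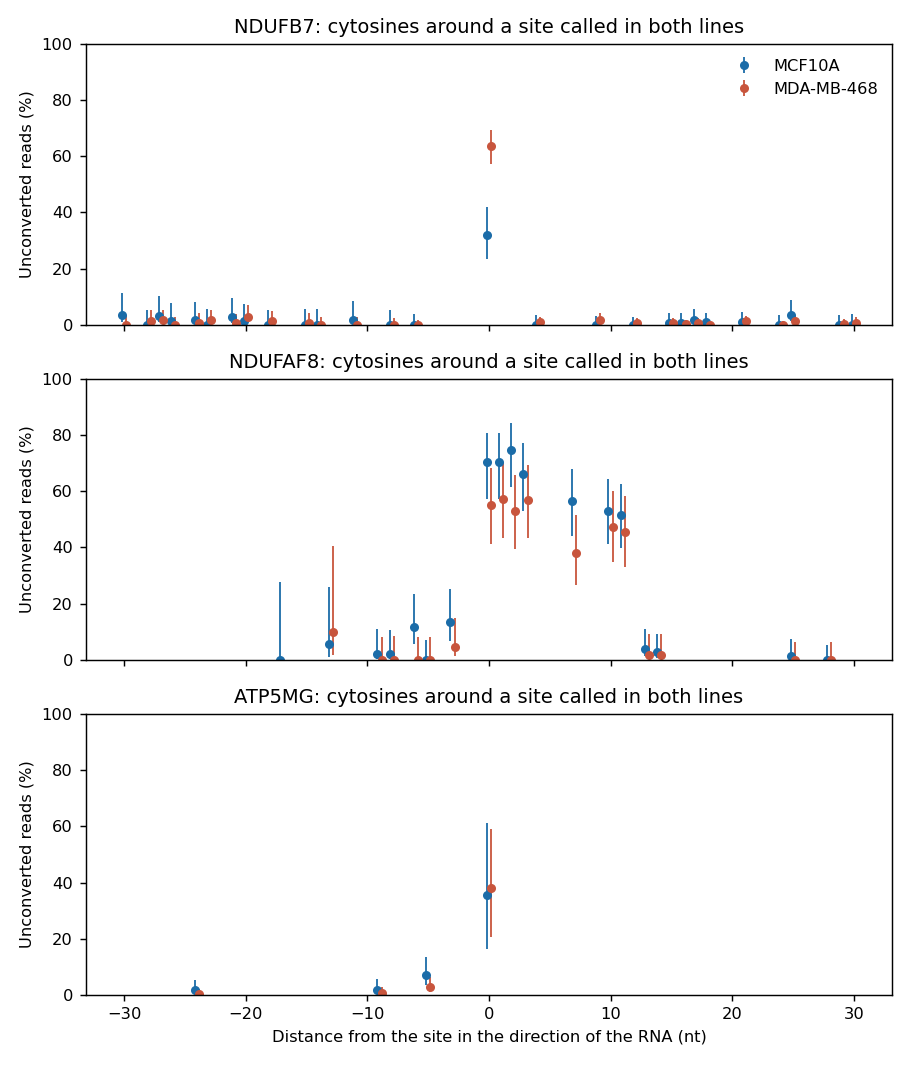
Methylation ratio (vertical axis, percent of reads unconverted) of each kept cytosine by its distance in nt along the RNA from a cytosine called in both lines, for NDUFB7 (position 14677651), NDUFAF8 (position 79213405) and ATP5MG (position 118279792), with points for MCF10A (blue) and MDA-MB-468 (red) and 95% Wilson intervals as bars. NDUFB7 shows a single raised cytosine at 32.0% and 63.6%, NDUFAF8 a block of 7, and ATP5MG a single one with wide intervals.

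NDUFAF8, an assembly factor that acts with NDUFAF5 in building complex I, carried the highest ratios of the MCF10A sites. From position 79213405 to 79213416 in exon 2, the 7 cytosines of the window had ratios between 51.4% and 74.5% at coverages of 54 to 70 in MCF10A, and between 38.2% and 57.1% at coverages of 49 to 55 in MDA-MB-468. The ratio of each of the 7 was lower in MDA-MB-468, and none of the differences passed (the smallest Fisher's exact p was 0.0262 at position 79213407, 41 of 55 against 27 of 51, adjusted p = 1). The block has a sharp edge: in MCF10A the cytosine before it, at position 79213402, had 7 of 52 unconverted reads, 13.5%, and was called in that line only.

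All 7 cytosines were predicted to be paired, with pairing probabilities between 0.66 and 0.97. The authors removed sites in predicted structure, a step not applied here, and such a filter would leave out these 7. A further 3 cytosines of NDUFAF8 in exon 1, between positions 79213231 and 79213234, were m5C sites in MDA-MB-468 alone, at 8 of 15, 7 of 15 and 7 of 13 reads. These too were predicted to be paired, with probabilities between 0.985 and 0.997. NDUFAF8 alone gave all 8 assembly factor sites in MCF10A and all 10 in MDA-MB-468.

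ATP5MG encodes subunit g, which lies in the membrane part of ATP synthase. At position 118279792, in the last exon, 5 of 14 reads were unconverted in MCF10A, 35.7% (16.3% to 61.2%), and 8 of 21 in MDA-MB-468, 38.1% (20.8% to 59.1%), and the difference of 2.38 points (-28.5 to 30.97) was within counting error. The coverage at this cytosine was far below that of its 2 kept neighbors, which had a median of 117.5 (MCF10A) and 196 (MDA-MB-468). Reads with a base other than C or T at a site are in neither count, and their part in this drop was not tested. A drop of this kind was also present at the sole UQCRC2 site (4 of 12 reads, neighbors at 97.5), an m5C site in MCF10A only and not kept in MDA-MB-468.

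Most other m5C sites lay in runs. In MCF10A 79 of the 100 sites had another m5C site within 10 nt, in 15 stretches on 12 genes. In MDA-MB-468 26 of the 35 did, in 5 stretches on 4 genes. The same share over all called sites was not computed, and the paper reports clustering of m5C sites across human and mouse RNA. Runs are therefore not shown to be particular to these genes. Besides NDUFAF8, 3 stretches in the coding sequence are shown, in each of which most cytosines were called. The 3 shown were chosen after their values were seen. Other stretches were as full, such as another NDUFB4 run in MCF10A with 5 of 5 kept cytosines called. Here the capitals mark the sites called in the one line named.
NDUFB4 exon 1 in MCF10A, chr3:120315223-120315251, plus strand: ataagCCgtCgagCCtgCgCaCtCtgcct
NDUFB11 exon 2 in MCF10A, chrX:47002070-47002098, minus strand: tggaaCatgCgaCttgtCttCttCtttgg
NDUFB8 exon 1 in MDA-MB-468, chr10:102289557-102289585, minus strand: cttgggagtCcagtggCtgCaaagggcat
NDUFB4, an accessory subunit of the membrane arm of complex I, had 9 m5C sites within 19 nt in the window above, with ratios of 21.1% to 25%, and 8 of the 9 had the same unconverted count of 4. In MDA-MB-468 the same 9 cytosines were kept with 2 or 3 unconverted reads each, a pooled ratio of 12.3%, and none was called. NDUFB11, another membrane arm subunit, had 6 sites within 19 nt at 15.2% to 18.8%, of which 5 had 5 unconverted reads, and the same cytosines pooled to 3.83% in MDA-MB-468. NDUFB8, also of the membrane arm, had 3 sites within 11 nt at 20% to 22.2% in MDA-MB-468. In MCF10A the 4 kept cytosines of this run had a pooled ratio of 2.08%. A further NDUFB8 site in MDA-MB-468, at position 102289597 outside the run, had 5 of 19 unconverted reads, 26.3%.

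The longest run was on ATP5F1E, the epsilon subunit of the F1 part of ATP synthase. In MCF10A all 17 kept cytosines within 47 nt of its 5′UTR were called, at ratios of 15.6% to 29.4%, and 14 of them had 5 unconverted reads. In MDA-MB-468 10 of these cytosines were kept, at coverages of 10 to 12, and their pooled ratio was 23.4% with none called, so the run was not detectable as m5C sites at this depth. ATP5MG gave the longest run of MDA-MB-468, 11 called cytosines of 11 kept within 29 nt, of which 9 had 6 unconverted reads. The run counts as 5′UTR by the region priority used, though its last cytosine lies just past the start codon of the canonical transcript. The 4 of these cytosines kept in MCF10A pooled to 6.67%.

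COX7B, an accessory subunit of complex IV, had 9 called cytosines of 9 within 27 nt of its 5′UTR in MCF10A, at 33.3% to 50%, with 6 unconverted reads at 8 of them. None of these cytosines was kept in MDA-MB-468. NDUFS7, a core subunit of complex I, had 7 of 7 within 10 nt of its 3′UTR, at 17.8% to 23.8%, and 6 of the 7 were kept in MDA-MB-468 with a pooled ratio of 11.2%. The counts do not say whether the unconverted bases of a run were on the same reads, and whether such reads escaped conversion as a whole was not tested.

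The sites without another m5C site within 10 nt numbered 21 in MCF10A and 9 in MDA-MB-468. For some of these the surroundings were low, as for NDUFB5, an accessory subunit of complex I, with 5 of 30 reads in MCF10A and 1 unconverted count of 108 at its 4 neighbors. For others they were nearly as high as the site: at ATP5MJ position 104379001 in MCF10A the site stood at 30.8% and its 6 neighbors pooled to 21.8%, whereas in MDA-MB-468 the site had 0 of 25 unconverted reads and the neighbors 0 of 134. ATP5MJ encodes a small membrane subunit of ATP synthase, and it and NDUFB5 were picked here after their values were seen.

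**Figure D3:**
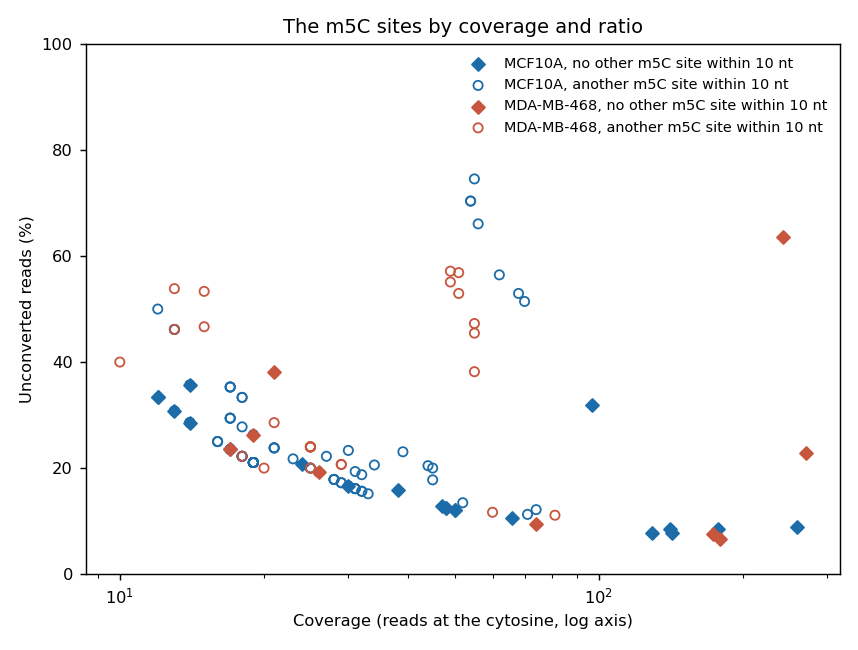
Methylation ratio (vertical axis, percent of reads unconverted) against coverage (horizontal log axis, reads at the cytosine) of the 100 m5C sites of MCF10A (blue) and the 35 of MDA-MB-468 (red), with filled diamonds for sites without another m5C site within 10 nt and open circles for the rest. Above a coverage of 80 the 2 NDUFB7 sites of MDA-MB-468 and 1 of MCF10A are the only ones over 20%, and the open circles between 38.2% and 74.5% at coverages of 49 to 70 are NDUFAF8.

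By role, the subunits of complex I held 53 m5C sites among 3924 kept in MCF10A, but 9 among 3219 in MDA-MB-468. Besides the genes above, NDUFS5, an accessory subunit, had 4 in MCF10A but 0 in MDA-MB-468, and NDUFA2, an accessory subunit of the matrix arm, 3 and 0. NDUFS6, a zinc-binding accessory subunit, had 2 in each line, all at low ratios of 6.70% to 12.8%. Complex III held 2 of 938 and 1 of 712, on UQCRC2, a core protein, and UQCRH, the hinge protein, in MCF10A and on UQCRB in MDA-MB-468.

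Complex IV held 16 of 904 in MCF10A, but 3 of 862 in MDA-MB-468. COX6C, an accessory subunit, had 5 sites in MCF10A at 10.6% to 15.8% and none in MDA-MB-468, and COX7C, another one, had 1 site in MCF10A at 8.51% and 3 in MDA-MB-468 at 9.46% to 11.7%. ATP synthase held 21 of 1862 and 12 of 1333. ATP5F1B, the catalytic beta subunit, had the m5C site with the highest coverage in MCF10A, 23 of 259 reads or 8.88% at position 57039696, and 4 of 38 reads at that cytosine in MDA-MB-468, 10.5%, were not enough for a call there.

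By region, 5′UTRs held 34 of the 100 m5C sites in MCF10A, 34.0% (25.5% to 43.7%), although they held 11.3% of the kept sites. In MDA-MB-468 they held 14 of 35, 40% (25.6% to 56.4%), against 9.73% of the kept sites. Over all mRNA the 5′UTR share of m5C sites was 29.8% and 25.3%, inside the interval of MCF10A and just below that of MDA-MB-468. Those 14 sites lay on only 2 genes, ATP5MG and COX7C, and the 34 on 8 genes. The coding sequence held 58 and 21, and the 3′UTR 8 of 738 kept MCF10A sites but 0 of 829 in MDA-MB-468, the latter a share of at most 0.461% by the Wilson bound. Over all mRNA 0.837% and 0.739% of 3′UTR sites were called, and the 3′UTR held 21.9% and 24.7% of the m5C sites.

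The predicted structure paired 22 of the 100 m5C sites in MCF10A and 15 of the 35 in MDA-MB-468, while 14.5% and 14.9% of all kept respiratory chain cytosines were paired. Of the paired sites NDUFAF8 gave 7 and 10. The pooled ratio of paired cytosines was 2.80% (MCF10A) and 2.44% (MDA-MB-468), and that of unpaired ones 2.11% and 1.75%. By sequence context, CCG held 17 of the 100 m5C sites in MCF10A and 6.10% of the kept sites, and 4 of the 35 in MDA-MB-468 and 6.40% of the kept sites.

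The pooled methylation ratio, all unconverted counts of a gene over all its counts, does not depend on calls. Over all kept respiratory chain cytosines it was 2.21% (2.17% to 2.25%) of 448897 counts in MCF10A and 1.85% (1.80% to 1.89%) of 357239 in MDA-MB-468, against 1.94% and 1.72% over all mRNA. Of the genes, 54 had at least 1000 counts in each line, NDUFC2 and its readthrough gene both among them. Their median was 2.24% (MCF10A) and 1.75% (MDA-MB-468), against 1.97% and 1.55% for all 3514 genes with as many counts. The ratio was lower in MDA-MB-468 for 35 of the 54, 64.8%, against 74.2% of all genes, and by complex for 21 of 27 genes of complex I but 3 of 10 of ATP synthase.

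Among these 54 genes, NDUFAF8 had the highest gene ratio in each line, 9.88% (8.89% to 10.96%) in MCF10A and 8.76% (7.73% to 9.91%) in MDA-MB-468, with overlapping intervals. NDUFB4 stood at 6.86% and 5.35%. COX6C differed more, at 6.32% (5.47% to 7.29%) in MCF10A and 2.42% (2.04% to 2.87%) in MDA-MB-468. COX7C stood on the other side, at 3.08% (2.66% to 3.57%) and 7.84% (6.77% to 9.06%). These subunits of complex IV thus had gene ratios apart in opposite directions, but the cytosines pooled in a gene share reads, so the intervals are too narrow, and no site of either passed between the libraries.

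NDUFC2, an accessory subunit of the membrane arm of complex I, stood at 6.15% (5.41% to 6.99%) and 5.01% (4.39% to 5.72%) with 0 and 1 m5C sites. Its unconverted reads were spread rather than gathered at 1 cytosine: around position 77790723 in exon 1, 15 neighboring cytosines pooled to 11.6% (MCF10A) and 15.4% (MDA-MB-468), where the site itself had 3 of 22 and 4 of 17 reads. NDUFC2 thus combined a high gene ratio with few called sites, unlike NDUFAF8.

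**Figure D4:**
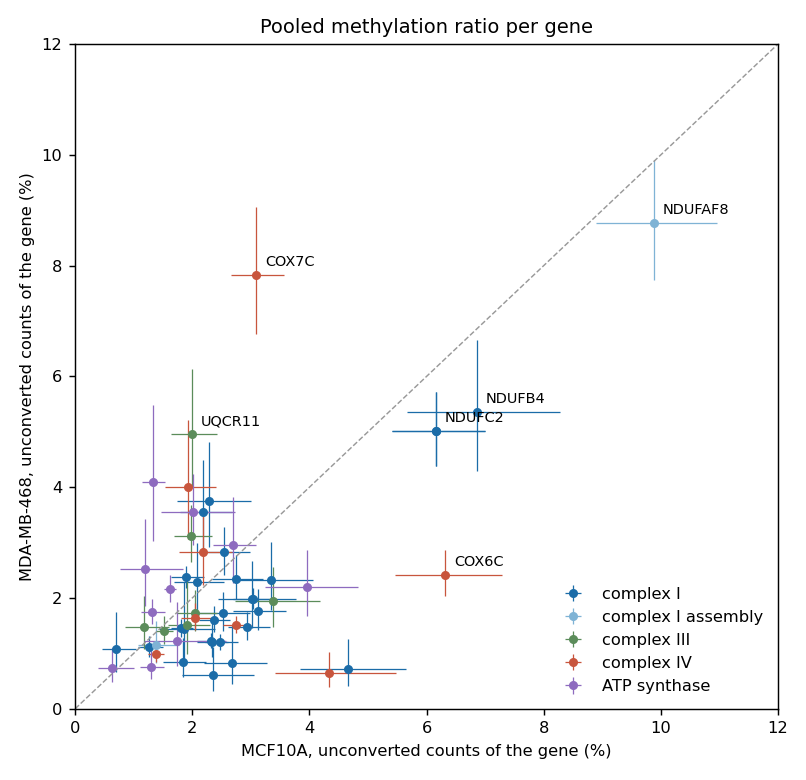
Pooled methylation ratio (percent of counts unconverted) of each gene with at least 1000 counts in each line, MCF10A on the horizontal and MDA-MB-468 on the vertical axis, colored by complex, with 95% Wilson intervals as bars and the line of equal ratios dashed. NDUFAF8 lies highest at 9.88% and 8.76%, COX7C lies above the line and COX6C below it.

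The level of an mRNA was taken as its coverage per exonic cytosine, per 1000000000 counts on nuclear exons of the library. It is a measure per length and was not tested. Counts outside these exons, as on mitochondrial RNA, are not in that total. All cytosines on exons of the basic transcripts of a gene were counted, covered or not, so long exons without coverage lower its level. The highest levels were in MCF10A those of ATP5F1B at 1845, COX8A, a complex IV subunit, at 1684, and NDUFS5 at 1456, followed by NDUFA1, an accessory subunit of complex I, at 1066 and COX5B of complex IV at 999.2. In MDA-MB-468 they were NDUFS5 at 3984, COX8A at 2882, NDUFB7 at 2594, NDUFS6 at 2120 and NDUFA13, an accessory subunit of complex I, at 1560. NDUFS5 and COX8A were thus among the top 5 in each library by this measure, which depends on the annotated exons of each gene.

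The log2 ratio of levels, MDA-MB-468 over MCF10A, had a median of 0.19 over the 54 genes and of 0.16 over all 3514, so the respiratory chain mRNAs as a set stood close to the middle of all mRNAs. It ranged from -2.65 for ATP5F1A, the alpha subunit of ATP synthase (level 136.3 against 21.7), to 1.72 for NDUFB7 (786.3 against 2594). The level was over 2-fold higher in MDA-MB-468 for 7 genes, NDUFB7, NDUFS6, NDUFS5, COX6C, NDUFA13, COX6B1 and ATP5MG, and over 2-fold lower for 5, ATP5F1A, ATP5F1B, UQCRC2, ATP5MC3 and UQCRC1. These were 13.0% and 9.26% of the 54 genes, where 19.5% and 12.8% of all 3514 genes were as far apart. The alpha and beta subunits of ATP synthase and both core proteins of complex III were thus lower, and 4 accessory subunits of complex I higher, within single libraries. The list of these 12 genes is a description chosen after the values were seen.

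**Figure D5:**
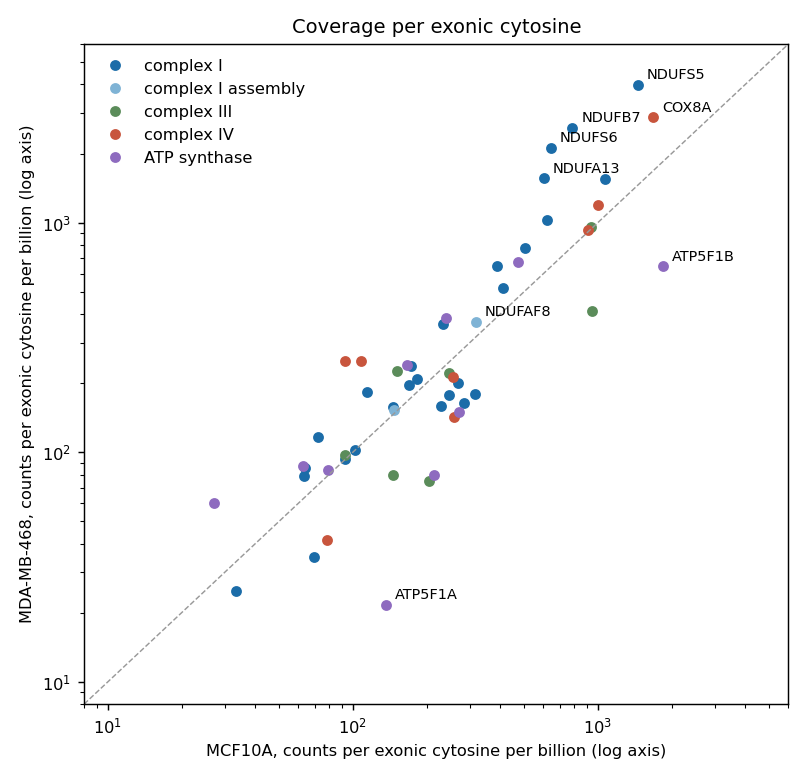
Coverage per exonic cytosine per 1000000000 counts on nuclear exons (log axes) of each gene with at least 1000 counts in each line. MCF10A is on the horizontal and MDA-MB-468 on the vertical axis, colored by complex, with the line of equal levels dashed and 1 library per line. NDUFS5, NDUFB7, NDUFS6 and NDUFA13 lie above the line and ATP5F1A and ATP5F1B below it.

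Not every gene of the rule could be assessed. ATP5MGL, COX4I2, COX6A2, COX6B2, COX7A1, COX7B2 and COX8C, most of them isoforms or paralogs known from muscle, lung or testis, had no deposited site in either line. NDUFA4L2, a paralog of NDUFA4 known to be induced by hypoxia, had no deposited site in MCF10A and 104 kept sites in MDA-MB-468 with none called. Another 3 genes in MCF10A and 8 in MDA-MB-468 had deposited sites but none kept, and NDUFA5, NDUFAF5 and NDUFAF7 had none deposited in MDA-MB-468.

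Of the genes, 48 have annotated processed copies elsewhere in the genome, 180 in all, led by COX6C with 17, and NDUFA5 and NDUFB4 with 12 each. On the copies, MCF10A kept 331 sites and MDA-MB-468 254, with 1 m5C site in each. UQCRHL is a near copy of UQCRH within the rule itself and was kept at 18 sites in each line. Values of genes with such copies are uncertain where reads could be placed on either.

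The respiratory chain genes outside the name rule, 61 in all, were compared as a list: the succinate dehydrogenase subunits, cytochrome c and c1, assembly factors of all 5 complexes, electron transfer flavoproteins, other enzymes that feed the quinone pool, and regulators of mitochondrial biogenesis. In MCF10A 12 of their 4663 kept sites were m5C sites, 0.257%, on 4 genes, and in MDA-MB-468 15 of 3642, 0.412%, on 6 genes. CYC1, the cytochrome c1 of complex III, held 7 and 8 of these. None of the 2555 sites of the list tested between the lines passed, with 28 at an unadjusted p under 0.05, 1.10%, near the 1.14% of all sites. The share of called sites on these genes was below that of all mRNA in each library.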

How the data were processed

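RNA BS-Seq counts of MCF10A and MDA-MB-468, 1 library each, were analysed. Per the methods, the authors used Trim Galore for trimming and MeRanTK for alignment (hg19) and for counting at cytosines, and the submitters' processing notes also name Bismark. The deposited values are raw counts of unconverted and converted reads per cytosine, without normalization, with a coverage of 5 or more. Every nuclear position fell on a cytosine of its strand in GRCh37.

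Cytosines covered by 10 or more reads on same-strand exons of GENCODE release 44 basic transcripts, or on the mitochondrial chromosome, were kept. Each was tested by Fisher's exact test against the summed counts of its line, and between the lines by a two-sided Fisher's exact test because QNB was not installed. Both were adjusted by Benjamini-Hochberg over all kept sites, at 0.05. A call needed at least 4 unconverted reads of 10 in each line, 5 of 20 in MCF10A or 4 of 20 in MDA-MB-468, and 9 or 10 of 100. Exons, codon bases and positions in a gene refer to the Ensembl canonical transcript, and 5′UTR took priority over coding sequence. Structures came from RNAfold of ViennaRNA 2.7.2 (MEA, gamma 0.1, 70 degrees, pairing distance 150 nt) on 304 of 339 transcripts. Of the rest, 3 were longer than 8000 nt and the others held no kept site. Pairing probabilities came from RNAplfold (window 300 nt). Predicted structure was not a filter in the results given first, whereas the authors removed sites in predicted double-stranded regions before testing. As predicted here, such a filter would remove the 7 NDUFAF8 sites called in both lines and its 3 exon 1 sites.

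Named genes were those among the 10 with the most m5C sites in a line, the 5 with the highest gene ratio at 1000 counts in each line, the 5 with the highest level, those with a site that differed between the lines, and those with the 6 m5C sites per line of highest coverage at a ratio of at least 0.2. One gene that the rule names is not reported here by name, though its sites are in the totals. The genes and lists were chosen with earlier results of these data known. Alternatives covered coverage, background, site set, ratio, structure, region priority and test, and those on readthrough genes, NDUFAF8, lone sites, the level and the pairing probability in the test between the lines were added after seeing the data. The code was tested on simulated counts and ran on Python 3.11.15, numpy 2.4.6, pandas 2.3.3, scipy 1.17.1, pysam 0.24.0 and matplotlib 3.10.9.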

Additional observations from a re-analysis of the deposited data

How the results depend on the processing

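The number of m5C sites was the result that moved most. In MCF10A it was 66 instead of 100 at a coverage of at least 20, 39 without sites of a pairing probability over 0.5, and 21 with only sites that had no other m5C site within 10 nt. In MDA-MB-468 it was 20 instead of 35 without sites paired in the RNAfold structure, 8 without sites of a pairing probability over 0.5, and 9 with only lone sites. The share of all kept cytosines with a probability over 0.5 is not given here. The falls under that setting therefore do not show that calls favor structure. The pooled ratio moved to 2.07% and 1.75% (MCF10A, MDA-MB-468) at a coverage of at least 20, to 2.30% and 1.93% with all deposited sites, and to 2.11% and 1.75% without paired sites. When only the 12052 sites called in at least 1 line were tested between the lines, 2 respiratory chain sites passed instead of 1: NDUFB7 (adjusted p = 4.57e-06 by Fisher's exact test) and COX7C position 85913826 (6 of 222 against 9 of 81 reads, adjusted p = 0.0405). Fewer sites were adjusted for there. The sites were also picked by calls on the same counts, and a call in 1 line favors a difference. Passing there is therefore no independent support for either site. Other causes were not tested. The NDUFB7 site passed in that test and at a coverage of at least 20. Leaving out paired sites could not change its result, because the site is unpaired in the RNAfold structure and p-values were not adjusted anew. When sites with a pairing probability over 0.5 were removed, 0 sites were left, because the NDUFB7 site itself has one of 0.633. That alternative was added after seeing the data. The other 25 values were within 1.5 times the first count or inside its interval, apart from the level, which has none, with 68 to 99 m5C sites in MCF10A (68 at a ratio of at least 0.2) and 25 to 35 in MDA-MB-468 (25 without NDUFAF8), a median log2 ratio of levels of 0.22 at a coverage of at least 10, and 5′UTR shares that ranged from 25.8% to 36.96% in MCF10A and from 37.1% to 56.0% in MDA-MB-468. An equal count need not be the same sites. At a coverage of at least 20 MDA-MB-468 again had 35 m5C sites, although 8 of the first 35 had a coverage under 20. The 5′UTR share was 54.3% in that setting.

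No paired analysis was possible because each line has 1 library and the labels give no replicate numbers, and for the same reason no replicate could be left out. Depth limits the calls: at a coverage of 20 a ratio under 25% in MCF10A or 20% in MDA-MB-468 was not called.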
